A study of Mus musculus with 4 samples.

Results

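Macrophages carrying transcripts of Gpnmb, a transmembrane glycoprotein of lysosomes and the cell surface that marks lipid-loaded macrophages, were described in single-cell RNA sequencing of gonadal white adipose tissue from old mice. Members were chosen by their counts of unique molecular identifiers (UMIs, each standing for 1 captured transcript). A member had at least 5 UMIs of Gpnmb, at least 3 of the macrophage gene Cd68 and at least 1 of Ptprc, which encodes the leukocyte protein CD45. It had no UMI of Car6, at most 2 of the resident macrophage genes Vsig4, Marco and Timd4 summed, at most 1 of the stromal gene Pdgfra and under 10 of the plasma cell gene Mzb1. By this rule 759 of 14982 kept barcodes were members, and they are called Gpnmb macrophages below. Levels of the genes in the rule are therefore descriptions of how the cells were picked.

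The cells came from the stromal vascular fraction (all tissue cells other than adipocytes) of 18-month-old male mice of the genotype p16-CreERT2/R26-LSL-tdTomato. In these animals, all given tamoxifen, a Cre recombinase driven by the p16 (Cdkn2a) promoter removes a stop cassette at the Rosa26 locus, and cells with an active p16 promoter during tamoxifen treatment keep the red protein tdTomato from then on. Cells were sorted on antibody staining for CD45 and CD31 and on tdTomato into groups named CD45- Tom+, CD45- Tom-, then CD45+ Tom+ and CD45+ Tom-. The study used the CD45+ and CD45- cells to infer signalling between cell types, with adipose progenitors split into p16-high and p16-low cells. Each group was 1 library, the number of animals behind it is not given in the sources used here, and there was no replicate, so no difference below was tested and every comparison is between libraries. In this fixed order of the 4 libraries, Gpnmb macrophages numbered 309, 122, 132 and 196.

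Lipid-associated macrophages gather around dying or overfilled adipocytes, take up their lipid through scavenger receptors such as CD36, and break it down in enlarged lysosomes. The surface receptor TREM2, which binds lipids and signals through the adaptor TYROBP, is needed for this programme in obese fat. The lysosomal genes of such cells are controlled in part by transcription factors of the MiT/TFE family (MITF, TFEB, TFE3 and TFEC), which bind a short promoter element called the CLEAR box.

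Whole-library properties that bear on these cells were checked first. Depth per member was alike, with a median of 29676, 27124, 29866 and 29025 UMIs, and members summed to 9977362, 3439149, 4177241 and 6042284 UMIs. The CD45 label did not part leukocytes from other cells, since Ptprc had a UMI in 80.8, 50.2, 79.2 and 53.5% of all kept barcodes, so the libraries are named by their labels only and the CD45- and CD45+ pairs are used as 2 separate Tom+ against Tom- comparisons. No barcode was a member in more than 1 library. However, 81, 75, 24 and 95 members had a barcode that also occurred in another library, mostly among barcodes that were not kept there, and the copy held a median of 1.22, 2.25, 1.13 and 1.81% and a maximum of 105, 7.21, 1.97 and 84.3% of the member's own UMIs. The 2 Tom- libraries shared 4394 barcodes and the 2 Tom+ libraries 26. Of these members, 75 of CD45- Tom- and 94 of CD45+ Tom- had their barcode in the other Tom- library. Whether the 2 pairs are independent of each other was not tested.

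Transcripts of other cells were present in the members and differed by library. Immunoglobulin genes made up a median of 1.74, 0.129, 1.23 and 0.114% of a member's UMIs, and the 10 plasma cell markers summed to 21783, 1848, 24918 and 1229 CPM (UMIs of a gene per 1000000 UMIs summed over members). T cells, taken as kept barcodes with at least 2 UMIs of Cd3e and none of Cd68 or Cd79a, serve as the cell type that should lack macrophage transcripts. They were held to the same limits on Pdgfra and Mzb1 as members, which bears on the levels of progenitor and plasma cell RNA in them. In these T cells the same plasma cell markers summed to 59195, 3972, 43488 and 3145 CPM. Both Tom+ libraries thus held far more plasma cell RNA than both Tom- libraries, in cells of either kind. Markers of adipose progenitors went the other way and summed to 381, 619.6, 348 and 737 CPM in members. Mast cell markers summed to 663, 25.9, 51.7 and 14.6 CPM, with the high value in CD45- Tom+ alone. At least 4 markers of 1 other lineage (T, B, mast, mesothelial or endothelial cells or neutrophils) were detected in 45, 14, 13 and 18 members, most often T cell markers, and 16 members of CD45- Tom+ carried mast cell markers. The shares, the counts of called genes and some ratios are given again without these cells.

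Gpnmb macrophages were a larger share of the kept barcodes in both Tom+ libraries. They made up 7.45% (95% interval 6.67 to 8.30) of CD45- Tom+ against 3.02% (95% interval 2.52 to 3.60) of CD45- Tom-, and 6.66% (95% interval 5.60 to 7.85) of CD45+ Tom+ against 4.07% (95% interval 3.53 to 4.66) of CD45+ Tom-. Because the sort set which other cells were in each library, the share was also taken among macrophage-like barcodes, which numbered 794, 558, 382 and 719. These had at least 3 UMIs of Cd68, at least 1 of Ptprc, at most 1 of Pdgfra and under 10 of Mzb1. How far the limit on Mzb1 changed these numbers in libraries rich in plasma cell RNA was not tested. Of these, 38.9% (95% interval 35.5 to 42.4) in CD45- Tom+ and 21.9% (95% interval 18.5 to 25.5) in CD45- Tom- were members. In the CD45+ libraries the values were 34.6% (95% interval 29.8 to 39.6) in Tom+ and 27.3% (95% interval 24.0 to 30.7) in Tom-, and these intervals overlapped. All intervals are exact 95% intervals and cover counting error only.

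**Figure D1:**
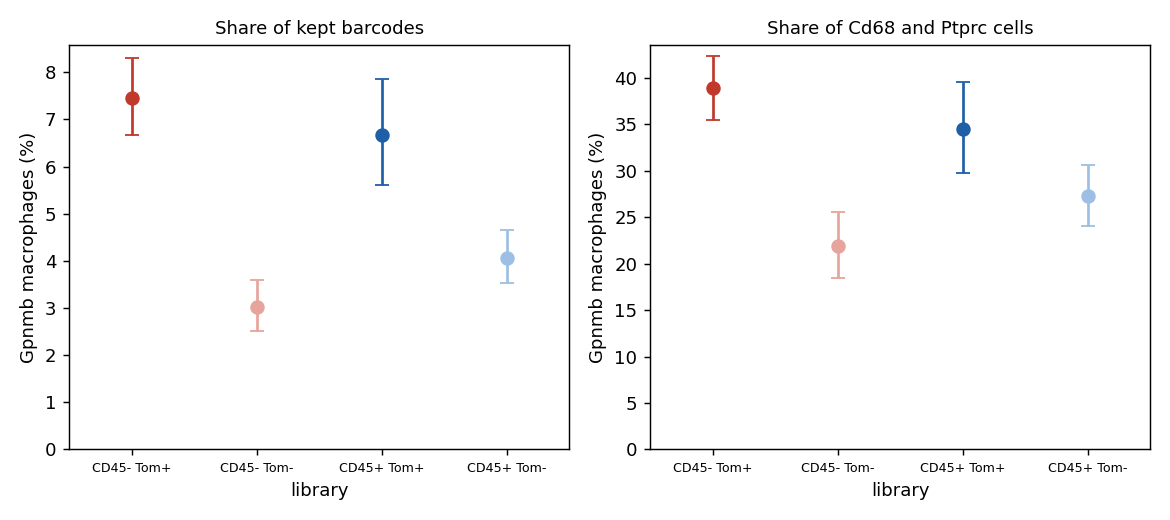
Share of Gpnmb macrophages in each library, in percent of all kept barcodes on the left and of barcodes with Cd68 and Ptprc on the right. The barcodes on the right also met the limits on Pdgfra and Mzb1. Points are shares and bars exact 95% binomial intervals; both Tom+ points lie above the Tom- point of the same CD45 label in each panel.

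The members carried the markers that the name of these cells rests on. Gpnmb (chr6:49036546-49070929 in mm10, plus strand) stood at 2759, 2068, 2723 and 1965 CPM in the order CD45- Tom+, CD45- Tom-, then CD45+ Tom+ and CD45+ Tom-, which is kept for every set of 4 values below. Its median count per member was 36, 36, 38.5 and 24 UMIs, and the top 10% of members held 222, 148, 233 and 142 UMIs or more. The top 5% of members held 17.8 to 32.8% of its UMIs. Lgals3, which encodes the galactoside-binding protein galectin-3 and was not in the rule, reached 6068, 5127, 5399 and 5293 CPM against 119 to 148 in T cells. Atp6v0d2, a subunit of the lysosomal proton pump also found in osteoclasts, reached 514, 492, 548 and 462 CPM against 3.28 to 11.8 in T cells. Both were well above the T cell level in every library.

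Those markers were not in every cell. After each cell was thinned to 2000 UMIs, Lgals3 was detected in 91.7 to 99.2% of members and in 18.6 to 27.7% of T cells, and Atp6v0d2 in 50.5 to 58.3% of members and 0.388 to 1.57% of T cells. Unthinned, Atp6v0d2 had a UMI in 87.8 to 95.8% of members. The T cells were shallower before thinning, with a median of 7887, 6407, 7518 and 7305 UMIs. Trem2 reached 1454, 1444, 1562 and 1362 CPM and Tyrobp, its adaptor, 2511, 2551, 2595 and 2526 CPM. The 10 general macrophage markers (Adgre1, Csf1r, Fcgr1, Mertk, Itgam, Cd14, Lyz2 and the C1q genes) were all at 20 CPM or more on average. Dendritic cell and adipocyte markers were near absent, and Adipoq, the adipocyte hormone adiponectin, stood at 1.30 to 2.63 CPM.

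Cells close to the Gpnmb threshold differed from the bulk of the members. The 53 members with 5 or 6 Gpnmb UMIs had 2251 CPM of Lgals3, 197 of Atp6v0d2, 826 of Trem2 and 946 of Fabp5. The 97 cells with 3 or 4 Gpnmb UMIs that met every other condition, and so were left out, had 1993, 222, 792 and 737 CPM of the same genes. Over all members the values were 5615, 503, 1448 and 2377 CPM. The H2-Aa transcript of MHC class II stood at 1864 and 2854 CPM on the 2 sides of the threshold and at 1173 CPM over all members. By library, the members with 5 or 6 Gpnmb UMIs had 1287, 2216, 213 and 2529 CPM of H2-Aa, below the level of all members in CD45+ Tom+ (863 CPM) and above it in the other 3.

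Lipid-handling genes were abundant in the members. Apoe, the lipid carrier of secreted lipoproteins, stood at 14297, 16505, 14917 and 12804 CPM. Lpl, the lipase that frees fatty acids from lipoproteins, stood at 3205, 3308, 3166 and 3393 CPM, and Cd36, a scavenger receptor for oxidised lipid and fatty acids, at 2517, 2221, 2553 and 2239 CPM. Fabp5, a carrier of fatty acids in the cytosol, reached 2664, 2085, 2406 and 2051 CPM, Plin2, a coat protein of lipid droplets, 2128, 1933, 1999 and 1886 CPM, and the cholesterol exporter Abca1 157, 165, 212 and 197 CPM. All 6 stayed within 1.5-fold between Tom+ and Tom- in both pairs. The 18 genes of the lipid-associated programme together made up a median of 5.04, 5.15, 4.73 and 4.62% of a member's UMIs.

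Lysosomal genes formed another large block. The aspartic protease Ctsd reached 6849, 5909, 6896 and 5839 CPM, and the cysteine protease Ctsl 4015, 2763, 3235 and 2629 CPM, against 260.2 to 365 and 51.0 to 80.9 CPM in T cells. The 40 lysosomal hydrolases summed to 39296, 35689, 38685 and 35045 CPM and the 17 subunits of the lysosomal proton pump to 4691, 4451, 4539 and 4517 CPM. Of the MiT/TFE factors, Mitf stood at 67.5, 66.9, 74.9 and 73.5 CPM, Tfe3 at 60.5, 63.7, 58.9 and 62.1 CPM and Tfeb at 38.6, 38.4, 43.1 and 44.0 CPM, so the transcripts of these factors were low and nearly level over the libraries.

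The sequence upstream of Ctsd is shown because this abundant hydrolase gene held the CLEAR core at 2 places. It is the 250 bases before the start site on the minus strand (chr7:142387828-142388077 in GRCm38.p6, from RefSeq), written 5′ to 3′ with the 7-letter core TCACGTG, on either strand, in capitals.
Ctsd: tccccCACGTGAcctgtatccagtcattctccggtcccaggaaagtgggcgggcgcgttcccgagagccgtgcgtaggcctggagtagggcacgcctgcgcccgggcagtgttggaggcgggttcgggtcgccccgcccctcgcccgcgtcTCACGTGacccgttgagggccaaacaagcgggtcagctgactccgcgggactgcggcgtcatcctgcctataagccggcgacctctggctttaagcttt
The matches lie 245 to 239 and 99 to 93 bases before the start. The promoters of the same table span 250 bases before to 50 after each start, and only the 250 before were searched. Among 32851 of them, 3.129% held the core on either strand. It occurred in 8 of 37 promoters (21.62%) of the 32 hydrolase genes found in the table, in 2 of 16 (12.5%) of the proton pump genes and in 0 of 16 of the lipid-associated programme. These counts describe letters only, and no binding was measured.

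Against other macrophages of the same libraries, the lipid-associated programme set the members apart by its size. The comparison is a description, since the rule chose the cells on their counts. The first class held resident macrophages (at least 3 UMIs of Vsig4, Marco and Timd4 summed, under 5 of Gpnmb; 59, 15, 33 and 17 cells) and the second Car6-bearing macrophages (at least 1 UMI of Car6, under 5 of Gpnmb; 77, 122, 35 and 138 cells). Both classes also met the limits on Cd68, Ptprc, Pdgfra and Mzb1 set for members, and the resident class had no Car6 UMI. The median log2 ratio of the 18 programme genes, members over resident macrophages, was 1.08 to 1.46 in the 4 libraries, and 14 of 18 were above 0 in all 4. Over the Car6 class it was 1.16 to 1.45, with 16 of 18 above 0 in all 4. Over all 5529 genes averaging 20 CPM or more, 19.8% were above 0 in all 4 libraries against resident macrophages and 31.1% against the Car6 class.

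Ctsk, a collagen-cleaving cathepsin best known from osteoclasts, was far above both classes, at 438, 432, 544 and 328 CPM in members and log2 ratios of 3.85 to 6.30 over resident and 3.41 to 4.64 over Car6 macrophages. It was uneven among members: the median member had 0, 1, 1 and 1 UMIs and the top 5% of cells held 46.1 to 64.01% of the transcripts. Acp5, another osteoclast gene, stood at 173, 196, 170.4 and 216 CPM, while the osteoclast fusion gene Dcstamp stood at 8.12, 12.5, 2.39 and 9.10 CPM and its relative Ocstamp at 1.40, 4.65, 1.44 and 1.16 CPM. Members therefore shared single genes with osteoclasts and had little of the fusion genes. Mfge8, a bridge between dying cells and phagocytes, was higher than in both classes (log2 ratios of 2.24 to 3.19 and 2.53 to 2.75), as were Fabp5 (1.76 to 4.43 and 2.52 to 3.18), Atp6v0d2 (1.68 to 3.70 and 3.41 to 4.10) and Ms4a7, a membrane protein of monocyte-derived macrophages (1.59 to 2.45 and 3.02 to 4.78).

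Other genes led in 1 of these contrasts. Against resident macrophages the 10 leading genes held Lgals3 (1.94 to 2.59), the interleukin-7 receptor Il7r (2.54 to 4.44), Ahnak2 (1.68 to 2.60), Pianp (1.57 to 2.67) and the inhibitory receptor family gene Cd300c2 (1.56 to 2.14). Il7r is a T cell gene as well, and stood at 140.2, 128, 144 and 118 CPM in members against 447 to 732 in T cells. Against the Car6 class the leading genes held Hpgds, which makes a prostaglandin (3.14 to 4.31), the high-affinity IgG receptor Fcgr1 (2.43 to 2.75), the selenium carrier Selenop (2.68 to 3.85), Rab3il1 (2.32 to 2.48) and the chemokine Ccl8 (2.45 to 4.75). Ccl8 was carried by few cells, with 62.9 to 83.3% of its UMIs in the top 5% of members.

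Gene groups outside the programme divided the macrophages in another way. The arginase gene Arg1, which turns arginine into ornithine, was lower in members than in the resident class (-4.02 to -1.69) and the Car6 class (-5.36 to -4.29), and the fibronectin gene Fn1 likewise (-3.49 to -1.75 and -4.73 to -3.44). The hyaluronan receptor Lyve1 was at 6.41, 2.91, 39.5 and 8.11 CPM in members. All 12 glycolysis genes with at least 20 CPM were below the Car6 class in all 4 libraries (medians of -0.89 to -0.66), where 36.8% of all genes were. All 6 MHC class II genes tested were above the Car6 class in all 4 libraries (medians of 0.63 to 1.34), where 31.1% of all genes were. Against resident macrophages their median ran from -1.31 to 0.46 with no common sign. Of 33 oxidative phosphorylation genes, 26 were above resident macrophages in all 4 libraries, where 19.8% of all genes were. Above the Car6 class in all 4 libraries were 22 of the 33, where 31.1% of all genes were. As a group they were thus higher in members than in both classes.

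**Figure D2:**
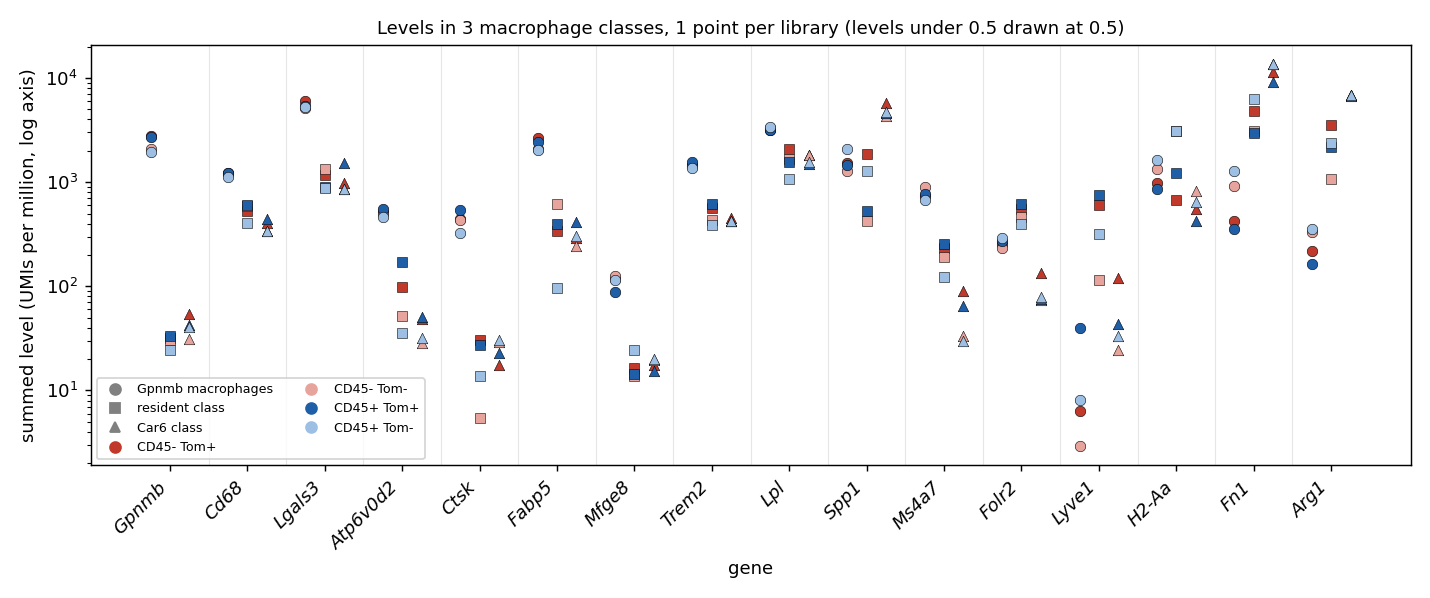
Levels of 16 genes in Gpnmb macrophages (circles), the resident class (squares) and the Car6 class (triangles), in CPM on a log axis, with 1 point per library and the library given by colour. Ctsk, Fabp5, Atp6v0d2 and Mfge8 are higher in Gpnmb macrophages than in both classes in all 4 libraries, and Fn1 and Arg1 are lower.

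The reporter separated the libraries within the members. tdTomato stood at 567, 20.1, 557 and 17.0 CPM, which is a log2 ratio of 4.82 (4.48 to 5.19) in the CD45- pair and 5.03 (4.74 to 5.33) in the CD45+ pair. In T cells it was at 948, 58.3, 946 and 94.7 CPM. After thinning to 2000 UMIs it was detected in 53.7, 2.46, 62.9 and 1.02% of members and in 76.4, 12.2, 81.6 and 15.1% of T cells, so the share in members was below that in T cells of the same library. Members were deeper than T cells, so thinning removed a larger part of a member's transcripts. The number of tdTomato UMIs per whole cell was not compared between them. Unthinned, 95.1, 34.4, 92.4 and 35.7% of members had a UMI. Free tdTomato RNA and expression by the cell itself cannot be told apart in the cells with few UMIs.

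Cdkn2a itself, the gene whose promoter drives the Cre, was sparse. It had 47, 41, 33 and 58 UMIs over all members of each library, or 4.71, 11.9, 7.90 and 9.60 CPM, with log2 ratios of -1.34 (-1.98 to -0.70) in the CD45- pair and -0.28 (-0.94 to 0.36) in the CD45+ pair. Its level was thus not higher in either Tom+ library, but with so few UMIs the ratios ran from -1.57 to 1.47 and from -0.96 to 0.57 over the alternative settings, and 5% of the members held 78.8 to 89.7% of its UMIs. A 3′ count does not tell p16 from Arf, which share the last exons of this gene. Cdkn1a, which encodes the cell cycle inhibitor p21, stood at 134, 129, 136 and 139.7 CPM with log2 ratios of 0.05 and -0.04. The other inhibitors were lower than Cdkn1a, with Cdkn2c at 29.1, 34.9, 30.9 and 24.8, Cdkn1b at 24.6, 29.4, 27.8 and 26.3 and Cdkn2d at 23.1, 20.4, 22.0 and 21.2 CPM, none past 1.5-fold in both pairs.

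Between Tom+ and Tom- members few genes differed by the size used here, which was at least 1.5-fold in the same direction in both pairs at a mean of at least 20 CPM. Of 5529 genes, 20 were higher (0.362%) and 21 lower (0.38%) in Tom+, and 96.5% lay within 1.5-fold in both pairs. With 1 library a group these are sizes and not tests. The same 2 shares over all genes hold for every count of called genes of a list below. At such shares a short list with no call says little. Single pairs passed the fold more often, with 42 genes higher (0.76%) and 50 lower (0.904%) in the CD45- pair and 57 higher (1.03%) and 93 lower (1.68%) in the CD45+ pair. Without immunoglobulin genes and tdTomato, the Pearson correlation of the log2 ratios between the pairs was 0.346 across 5522 genes. Of the 20 higher genes, 6 were immunoglobulin genes, 1 was tdTomato and 4 were mast cell markers, which left 9 that belong to none of these. Of the 21 lower genes, 5 were markers of progenitors or monocytes (Col1a1, Col1a2, Col3a1, Dcn and Ccr2), which left 16. These 16 are outside the marker lists only. They held the matrix genes Mgp (-1.43 and -2.17) and Sparc (-0.68 and -1.45), lower in both pairs as the collagen genes were. The part of progenitor RNA in the 16 was not tested. In T cells the progenitor markers summed to 179, 678, 1777 and 1140.1 CPM, which is lower in Tom+ in the CD45- pair and higher in Tom+ in the CD45+ pair, while mast cell markers were higher in both Tom+ libraries (1651, 79.2, 135 and 91.0 CPM).

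**Figure D3:**
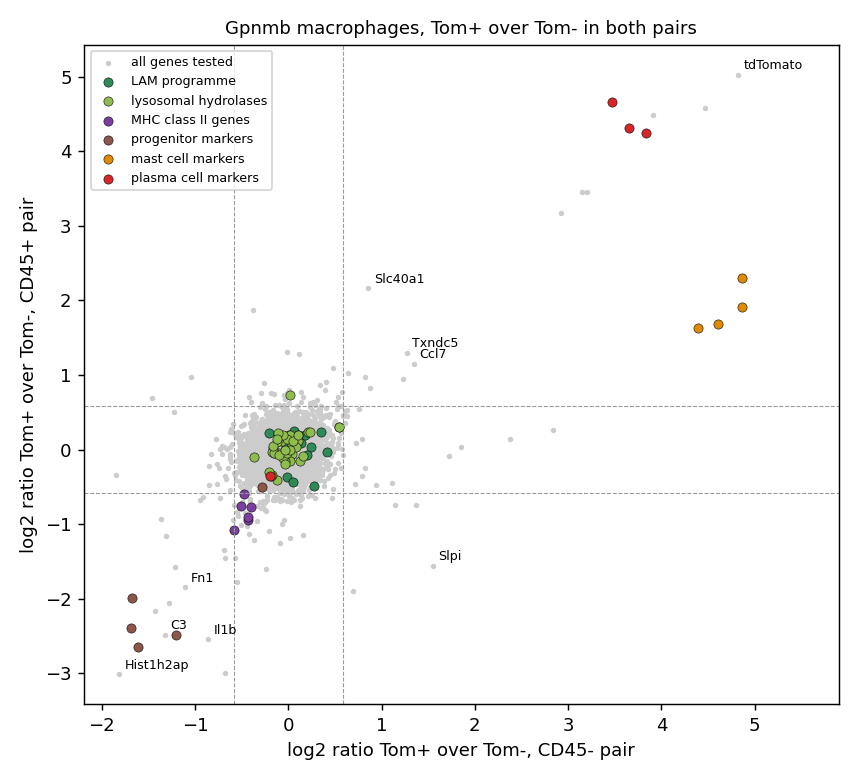
Log2 ratio of Tom+ over Tom- members for each of 5529 genes, in the CD45- pair on the horizontal and the CD45+ pair on the vertical axis, with genes of 6 lists in colour, some genes labelled, and dashed lines at 1.5-fold. Most points lie near 0, while immunoglobulin genes, mast cell markers and tdTomato lie at the upper right and Fn1, C3 and Il1b at the lower left.

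The programme that defines these cells was nearly level between Tom+ and Tom-. None of its 18 genes was called, against the 0.362% and 0.38% of all genes, and the median log2 ratios were 0.10 and 0.09, where the median over all 5529 genes was -0.04 and -0.04. Gpnmb, which the rule used, was at log2 ratios of 0.42 and 0.47. Fabp5 was at 0.35 and 0.23, Ctsl at 0.54 and 0.30 and Trem2 at 0.01 and 0.20. Of the 18, 10 were above 0 in both pairs, where 18.6% of all genes were. Only 2 were below 0 in both, where 36.6% of all genes were. Small shifts to the higher side in Tom+ were more common in this list than over all genes. Over members the programme correlated with Gpnmb, the gene the rule used, at 0.593 to 0.671. How far the shifts follow Gpnmb was not tested. After thinning to 10000 UMIs the list median was -0.08 in the CD45- pair and 0.05 in the CD45+ pair. The Gpnmb ratios were then 0.11 and 0.35. Spp1, the secreted phosphoprotein osteopontin, pointed to opposite sides (1541, 1274, 1472 and 2060.0 CPM; 0.27 and -0.49), but the ratios were -0.03 and -0.07 with a looser quality filter and -0.96 and -0.09 without barcodes present in more than 1 library. Of 39 lysosomal hydrolases and 16 proton pump subunits tested none was called, with medians of -0.03 and -0.01 and of 0.09 and 0.00. Ctsk alone among the hydrolases passed 1.5-fold, in the CD45+ pair only (0.02 and 0.73).

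**Figure D4:**
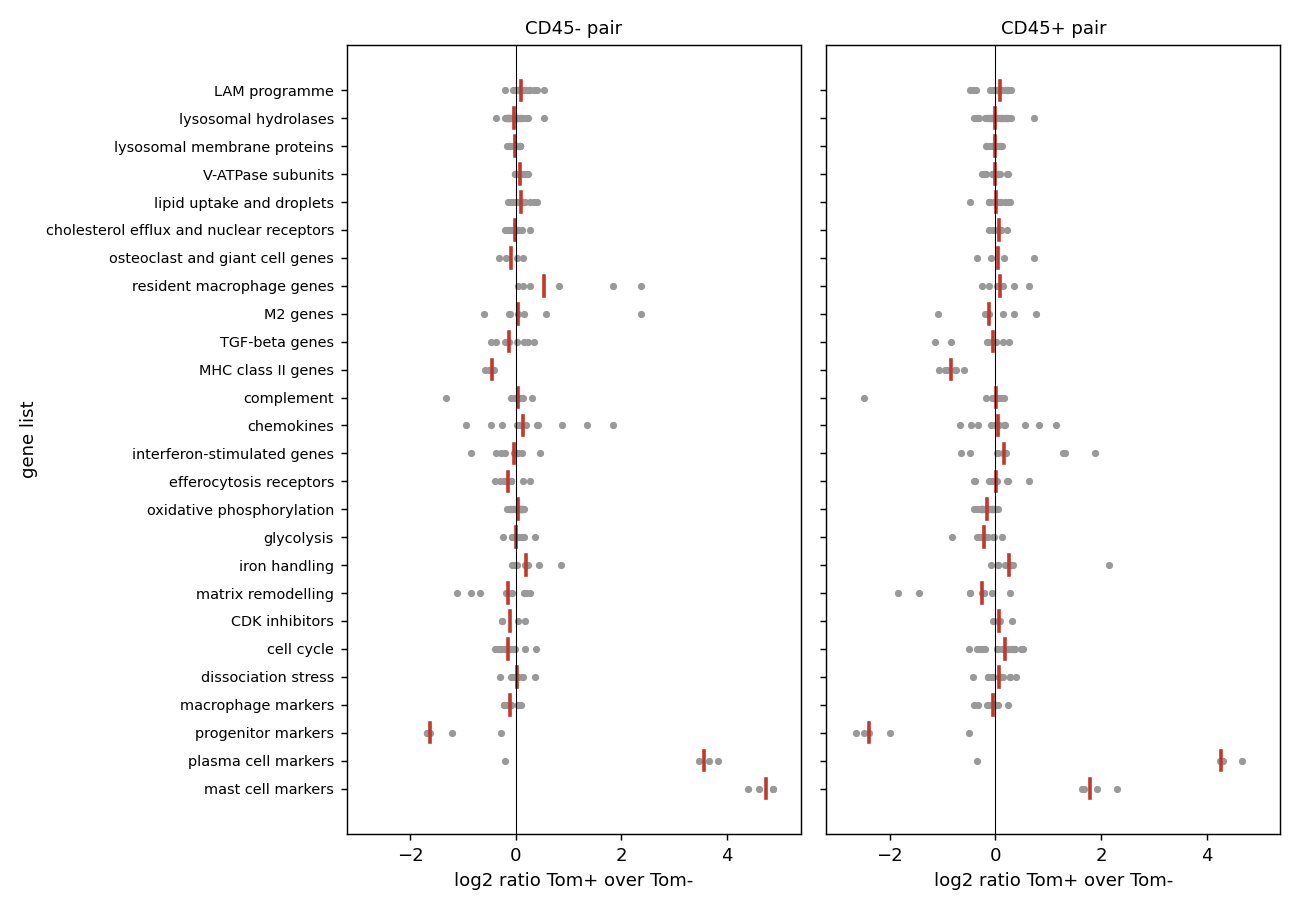
Log2 ratio of Tom+ over Tom- members for the genes of each list, in the CD45- pair on the left and the CD45+ pair on the right. Grey points are genes and red bars list medians. MHC class II genes lie below 0 in both pairs at -0.45 and -0.84, while the lipid-associated programme and the lysosomal lists lie within 0.10 of 0.

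MHC class II genes, whose products present peptides to CD4 T cells, were lower in Tom+ members as a group. H2-Aa, the alpha chain of I-A, stood at 978, 1324, 863 and 1622 CPM (-0.44 and -0.91 as log2 ratios), and H2-Ab1, its beta chain, at 691, 934, 635 and 1226 CPM (-0.43 and -0.95). H2-Eb1, the beta chain of I-E, stood at 561, 841, 526 and 1106 CPM, with log2 ratios of -0.58 (-0.65 to -0.52) in the CD45- pair and -1.07 (-1.14 to -1.003) in the CD45+ pair. Each was higher in both Tom- libraries than in both Tom+ libraries. The invariant chain Cd74 followed with 1903, 2520.1, 1889 and 3222 CPM (-0.41 and -0.77), and so did the peptide-loading chaperone chains H2-DMa (-0.47 and -0.59) and H2-DMb1 (-0.51 and -0.75).

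None of the 6 MHC class II genes was called, since in the CD45- pair all were short of 1.5-fold (log2 of 0.585), while all 6 passed it in the CD45+ pair. Under some other settings genes passed it in both pairs. H2-Eb1 did so without marked doublets (-0.69 and -0.91), after thinning (-0.89 and -0.90), with a looser quality filter (-0.64 and -1.16) and at a Gpnmb threshold of 3 UMIs (-0.62 and -0.85). After thinning H2-Aa (-0.73 and -0.68) and H2-Ab1 (-0.71 and -0.76) did so too. H2-DMb1 did so with the looser filter (-0.59 and -0.79) and without marked doublets (-0.61 and -0.73). At a Gpnmb threshold of 10 UMIs the CD45- ratios were nearer to 0, with H2-Aa at -0.28, H2-Ab1 at -0.26, Cd74 at -0.23 and H2-Eb1 at -0.38. The medians of the 6 genes at that threshold were -0.33 in the CD45- pair and -0.87 in the CD45+ pair. In the main setting all 6 were below 0 in both pairs, where 36.6% of all genes were, and the medians were -0.45 and -0.84. Ciita, the coactivator that switches these genes on, was too low for the 20 CPM floor at 11.6, 24.4, 10.8 and 28.1 CPM (-1.07 and -1.38). The group was very uneven among members: it made up a median of 0.125, 0.244, 0.135 and 0.376% of a member's UMIs, 0.0139, 0.0168, 0.0148 and 0.0161% at the lowest decile and 1.66, 2.03, 1.61 and 2.26% at the highest. In T cells H2-Aa was at 81.4, 149, 44.4 and 121 CPM, which also was higher in both Tom- libraries, and the part of free RNA in the difference was not tested. Dendritic cell markers summed to 15.5, 6.397, 3.35 and 21.8 CPM in members and B cell markers to 59.4, 70.1, 60.3 and 45.2 CPM.

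Promoters of this group are shown because they hold the Y box, the element shared by genes of this class, at a like distance from the start. They are the 120 bases before the start sites of H2-Aa (chr17:34287824-34287943, minus strand), H2-Eb1 (chr17:34305747-34305866, plus strand) and H2-DMb1 (chr17:34153071-34153190, plus strand) in GRCm38.p6 from RefSeq, 5′ to 3′, with TGATTGG in capitals.
H2-Aa: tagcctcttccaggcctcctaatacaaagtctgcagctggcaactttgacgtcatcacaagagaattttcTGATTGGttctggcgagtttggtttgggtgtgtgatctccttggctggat
H2-Eb1: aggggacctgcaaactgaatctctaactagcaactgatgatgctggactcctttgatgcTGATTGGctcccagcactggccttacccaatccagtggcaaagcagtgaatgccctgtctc
H2-DMb1: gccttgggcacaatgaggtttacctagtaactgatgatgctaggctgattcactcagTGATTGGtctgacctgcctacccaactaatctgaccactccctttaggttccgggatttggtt
The box lies 50 to 44 bases before the start in H2-Aa, 61 to 55 in H2-Eb1 and 63 to 57 in H2-DMb1. Searched on both strands, it occurred in 6 of 8 promoters (75%) of the 7 MHC class II genes found in the table, namely those of H2-Aa, H2-Eb1, H2-DMb1, H2-DMb2, H2-Oa and H2-Ob, and in 7.23% of all 32851. Both H2-DMa promoters lacked it, and H2-Ab1 and Cd74 had no promoter among those searched. H2-DMb2, H2-Oa and H2-Ob were not among the 6 genes tested between Tom+ and Tom-. The match describes letters and not use of the site in these cells.

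Matrix and inflammatory genes made up much of the rest that was lower in Tom+. Fn1 stood at 426, 919, 353 and 1267 CPM, with log2 ratios of -1.11 (-1.18 to -1.04) in the CD45- pair and -1.84 (-1.93 to -1.76) in the CD45+ pair. It was concentrated, as the top 5% of members held 46.6 to 74.2% of its UMIs, and in T cells it stood at 108, 445, 74.6 and 137 CPM. Arg1 stood at 219.6, 333, 164 and 352 CPM (-0.60 and -1.10). Its call ended in the CD45- pair at a Gpnmb threshold of 10 UMIs, with equal weight for each cell, after thinning and under both other scalings, where the ratio lay between -0.57 and -0.20. The inflammatory cytokine gene Il1b stood at 34.5, 62.5, 21.5 and 126 CPM (-0.86 and -2.55), with -0.65 in the CD45+ pair without barcodes present in more than 1 library. Arg1 and Il1b both sat in few cells, with 65.0 to 78.5% and 75.3 to 83.9% of their UMIs in the top 5% of members. Ptgs2, the inducible cyclooxygenase, stood at 12.8, 31.1, 10.1 and 41.9 CPM (-1.28 and -2.06), and Slc7a11, the cystine importer, at 12.7, 29.7, 13.9 and 41.2 CPM (-1.22 and -1.57). These last 2 were named after their values were seen. Arg1 and Fn1 are also abundant in the Car6 class, in which they stood at 6742 to 6857 and 9233 to 13718 CPM.

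For other lower genes the T cell level matters. The complement gene C3 stood at 26.4, 66.0, 17.2 and 96.3 CPM in members (-1.32 and -2.48) and at 36.8, 128, 441 and 254 CPM in T cells. Erh stood at 55.1, 80.3, 51.2 and 94.7 CPM (-0.54 and -0.89). The histone gene Hist1h2ap, made in S phase, stood at 18.0, 63.4, 14.8 and 119.8 CPM (-1.81 and -3.01), but the top 5% of members held 88.9 to 97.5% of its UMIs and the sign turned when barcodes present in more than 1 library were left out (3.49 and 3.70). Whether free RNA made these differences was not tested.

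The genes higher in Tom+ included the chemokine genes Ccl2 and Ccl7, the iron exporter gene Slc40a1 and the folding gene Txndc5. The monocyte-attracting chemokines Ccl2 and Ccl7 stood at 146, 79.4, 132 and 74.3 and at 81.3, 32.0, 68.0 and 30.6 CPM, with log2 ratios of 0.88 and 0.83 for Ccl2 and 1.35 and 1.15 for Ccl7. In T cells they were at 139.2, 31.9, 44.4 and 56.7 and 135, 20.9, 22.2 and 44.6 CPM, and without the cells of mixed lineage the ratios in members were 0.62 and 0.75 for Ccl2 and 0.53 and 1.16 for Ccl7. After thinning to 10000 UMIs both calls ended, with 0.55 for Ccl2 and 0.38 for Ccl7 in the CD45+ pair. The top 5% of members held 60.5 to 70.1% of the Ccl7 UMIs. Cxcl1, which attracts neutrophils, stood at 264, 199, 342 and 232 CPM (0.41 and 0.56), short of 1.5-fold in both pairs. Of 12 chemokine genes tested, 2 were called higher (Ccl2 and Ccl7) and 1 lower (Cxcl14), against 0.362% and 0.38% of all genes. The medians of the 12 were 0.15 and 0.05.

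Slc40a1, which encodes the iron exporter ferroportin, stood at 43.2, 23.8, 65.1 and 14.6 CPM, with log2 ratios of 0.86 (0.51 to 1.22) in the CD45- pair and 2.16 (1.81 to 2.52) in the CD45+ pair. A looser quality filter ended its call, with 0.47 in the CD45- pair. In T cells it was at 0 to 1.82 CPM in every library. The top 5% of members held 61.4 to 70.7% of its UMIs, so the level was set by few cells. Hmox1, which splits haem, was at 319.8, 236, 302 and 252 CPM (0.44 and 0.26), and 7 of 9 iron genes tested were above 0 in both pairs, where 18.6% of all genes were, with medians of 0.19 and 0.26. After thinning to 10000 UMIs the median of the iron genes in the CD45+ pair was -0.03. Fth1, the ferritin heavy chain, was nearly level (0.23 and 0.29), with -0.08 in the CD45+ pair without barcodes present in more than 1 library.

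Txndc5, which serves protein folding in the endoplasmic reticulum and is abundant in plasma cells, was called higher in Tom+ members and was also higher in T cells of both Tom+ libraries. Xbp1 and Herpud1, of the stress response of the same organelle, were short of 1.5-fold in at least 1 pair. Txndc5 stood at 148, 61.4, 131 and 53.1 CPM in members (1.27 and 1.30) and 291, 49.2, 219 and 44.6 CPM in T cells, and Xbp1 at 162, 112, 148 and 98.6 CPM (0.53 and 0.58) and 257, 78.3, 197 and 83.0 CPM. Herpud1 was at 0.76 and 0.54 in members. By contrast, Gdf15, a stress cytokine, stood at 243, 184, 311 and 178 CPM (0.40 and 0.80) with 1.82 to 21.7 CPM in T cells, and its ratio in the CD45- pair was 0.00 without barcodes present in more than 1 library. Akr1b8, an aldo-keto reductase, was at 155, 100.3, 132 and 91.7 CPM (0.63 and 0.53) and Wfs1, of the endoplasmic reticulum membrane, at 70.0, 46.5, 75.4 and 55.1 CPM (0.59 and 0.45), with 0 to 4.69 and 0 to 6.57 CPM in T cells. Trib1, a pseudokinase, was at 77.2, 53.2, 81.4 and 50.1 CPM (0.54 and 0.70). The Wfs1 ratio in the CD45- pair was -0.36 without barcodes present in more than 1 library. Of these 4, none reached 1.5-fold in both pairs.

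Outside the naming rule, and chosen after their values were seen, 5 more of the 9 higher genes were Mzb1, Ly6d, Cd69, Trp53inp1 and D10Wsu102e. Mzb1 and Ly6d were 70.9, 9.30, 58.2 and 6.45 and 46.6, 5.23, 39.7 and 3.64 CPM in members and 234, 20.04, 186 and 13.1 and 168, 13.7, 121 and 7.03 CPM in T cells, in the pattern of the plasma cell markers. Mzb1 was capped in members and in T cells alike. The p53-induced gene Trp53inp1 stood at 47.6, 20.4, 40.0 and 20.7 CPM (1.23 and 0.95) and at 206, 202, 262 and 189 CPM in T cells, where the libraries differed less.

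Genes used to sort macrophages into M1 and M2 states gave values on both sides of 0. Of 7 M2 genes tested, Arg1 was called lower and none higher, against 0.38% and 0.362% of all genes. The medians of the 7 were 0.05 and -0.12. The mannose receptor Mrc1 stood at 386, 373, 479 and 377 CPM (0.05 and 0.35) and the regulatory cytokine Il10 at 41.6, 27.9, 66.6 and 39.1 CPM (0.58 and 0.77). Of 3 M1 genes tested, Il1b was called lower. Nos2, the inducible nitric oxide synthase, had 3, 0, 0 and 0 UMIs, and Cd163 stood at 2.15 to 4.07 CPM. Of the TGF-beta genes, Tgfb1 stood at 248, 269.8, 249 and 273 CPM (-0.12 and -0.13). None of 10 tested was called, and the medians were -0.13 and -0.05, with 2 past 1.5-fold lower in the CD45+ pair. Tgfbi, an extracellular protein induced by TGF-beta, was at 114, 156, 108 and 193 CPM (-0.46 and -0.84), and the matrix glycoprotein gene Thbs1 at 102, 91.0, 73.5 and 162 CPM (0.16 and -1.14). Gas6, the ligand of the dying-cell receptors Mertk and Axl, was at 118, 98.3, 131 and 83.9 CPM (0.27 and 0.64).

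Energy genes differed by pair. The 33 oxidative phosphorylation genes had medians of 0.04 and -0.16 and the 12 glycolysis genes of 0.01 and -0.22, with none called in either list. Of the 16 cell cycle genes tested none was called, and the medians were -0.14 and 0.18. Cycling members, those with a UMI of both Mki67 and Top2a after thinning to 10000 UMIs, made up 8.64% (95% interval 5.72 to 12.4), 8.33% (4.07 to 14.8), 9.45% (4.98 to 15.9) and 5.70% (2.88 to 9.97) of 301, 120, 127 and 193 members deep enough. All 4 intervals overlapped. Early response genes raised by tissue dissociation, such as Fos and Jun, had medians of 0.03 and 0.07.

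Among the members themselves, Gpnmb varied together with the other genes of the programme. Over members thinned to 10000 UMIs, Spearman correlations with Gpnmb, each over 120 to 301 cells of 1 library, were 0.608 to 0.660 for Ctsl, 0.570 to 0.663 for Lgals3, 0.496 to 0.595 for Atp6v0d2 and 0.481 to 0.619 for Fabp5. The lysosomal genes Psap (0.461 to 0.579), Cd63 (0.453 to 0.601), Ctsd (0.448 to 0.583) and Ctsz (0.432 to 0.539) came next, with Pld3 (0.423 to 0.488) and Trem2 (0.421 to 0.544) after them. These genes were the most like Gpnmb by the lowest correlation of the 4 libraries, a ranking added after the values were seen. Taken per cell as summed levels, the hydrolases correlated with Gpnmb at 0.592 to 0.727 and the proton pump at 0.482 to 0.532. Depth was equal, but cells of a library share its free RNA, and the rule cut the range of Gpnmb from below.

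At the other end stood genes that were lower where Gpnmb was higher. Correlations were -0.420 to -0.355 for the membrane protein gene Tmem176b, -0.383 to -0.300 for the NF-kappa-B inhibitor Nfkbia, -0.488 to -0.266 for the endocytic adaptor Dab2, -0.436 to -0.254 for the scavenger receptor Stab1 and -0.459 to -0.231 for the chemokine Pf4. MHC class II levels and Gpnmb correlated weakly, at -0.200 to -0.0897, and MHC class II with the whole programme at -0.104 to 0.0180. The genes with most cell-to-cell variance over their mean (Fano factor at equal depth) were Apoe (112 to 157), Malat1 (66.3 to 260.4), Spp1 (63.3 to 159) and Fn1 (59.6 to 76.6). For Spp1 the top 5% of members held 42.8 to 62.0% of the UMIs, and for the elastase Mmp12 50.2 to 65.9%, so both were carried mainly by a subset of the cells.

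**Figure D5:**
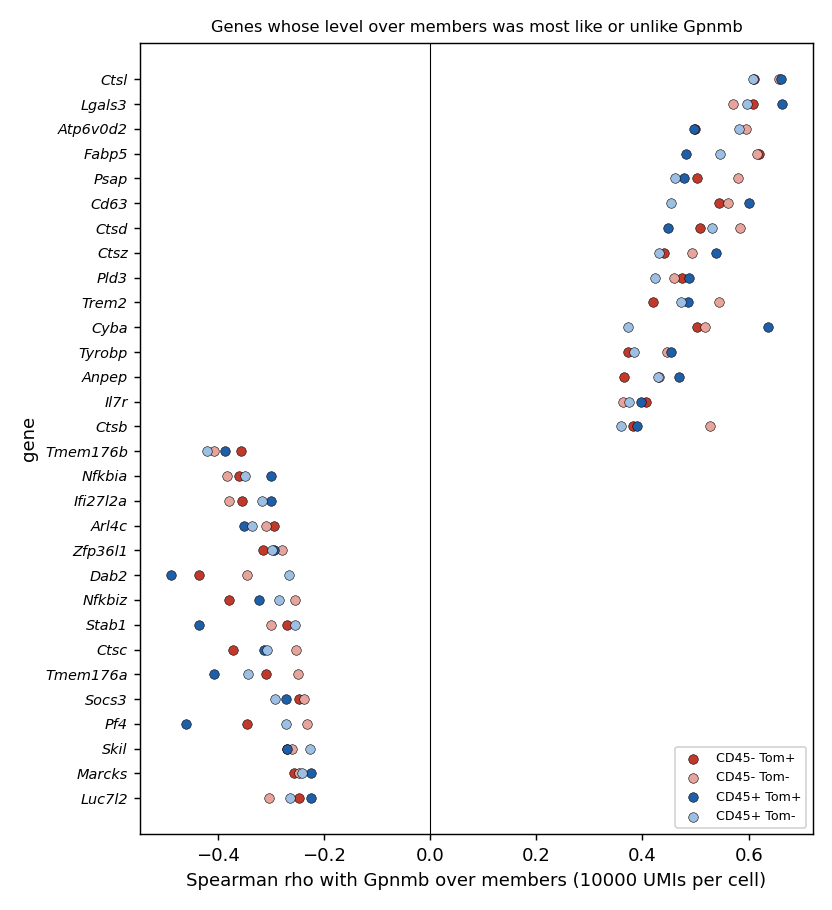
Spearman correlation with Gpnmb over members thinned to 10000 UMIs, for the genes most like and most unlike it, with 1 point per library. Ctsl and Lgals3 lie above 0.5 in every library, and Tmem176b, Dab2 and Pf4 lie below 0 in every library.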

How the data were processed

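Digested adipose cells were sorted, and 10x Genomics Chromium 3′ v3.1 libraries were made and sequenced by the authors. The authors ran Cell Ranger 3.0.2 against mm10 (submitters' processing notes) and deposited for each library a matrix of raw UMI counts, barcode by gene, with a tdTomato feature and no normalization. Everything below was computed from those counts.

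The study's limits on barcodes were used (more than 1000 and fewer than 7000 genes, mitochondrial share below 8%), leaving 4145, 4038, 1981 and 4818 in the order CD45- Tom+, CD45- Tom-, then CD45+ Tom+ and CD45+ Tom-. Doublets were not removed, and 14, 9, 1 and 11 members were among the highest scores of Scrublet in scanpy 1.11.5 (0.8% per 1000 barcodes), which were left out as an alternative. UMIs were summed over the members of a library and scaled to CPM, with exact Poisson intervals. Log2 ratios carry the conditional exact interval for a pair of counts, and shares exact Clopper-Pearson intervals (scipy 1.17.1). PCR duplicates were collapsed by UMI, and all intervals cover counting error only. With 1 library per group no p-value is given, and the study's Wilcoxon test over cells was not used because cells are not replicates. A gene was called at 1.5-fold or more in the same direction in both pairs, with a mean of at least 20 CPM. Detection shares used cells thinned to 2000 UMIs, which left out 1 T cell and no members, and correlations used cells thinned to 10000 UMIs, which left out 8, 2, 5 and 3 members.

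The members, the gene lists and the tests were chosen with earlier results of these data known. Besides listed genes, the 10 genes with the largest and the smallest log2 ratio were named, by the pair nearer to 0 at a mean of at least 50 CPM with the same sign in both pairs, and the 10 largest against each other macrophage class. Immunoglobulin, mitochondrial, ribosomal protein, haemoglobin and predicted genes, markers of other cell types, tdTomato and genes of the rule were left out of this ranking. Some genes that the rule names are not reported here. The calling of genes was tested on simulated counts with known changes larger than 1.5-fold and with counting error only. The simulation held no unevenness between cells and no free RNA, so it cannot show how the call behaves with them. Alternatives covered the filters, the Gpnmb threshold, doublets, depth, shared barcodes, cell weights, totals, centring, floors and folds. Gene positions came from GENCODE vM21 (mm10) and promoter sequences from RefSeq (GRCm38.p6).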

Additional observations from a re-analysis of the deposited data

Results flagged for a closer look

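The 6 genes below passed 1.5-fold in opposite directions in the CD45- and the CD45+ pair, which is what singled them out, and the difference between the pairs was not tested. Slpi, a secreted protease inhibitor, had log2 ratios of Tom+ over Tom- of 1.55 and -1.56, from 98.5, 33.7, 55.5 and 164 CPM in members of CD45- Tom+, CD45- Tom-, then CD45+ Tom+ and CD45+ Tom-. In T cells Slpi stood at 244, 36.4, 175 and 38.0 CPM, and in CD45+ Tom- the top 5% of members held 88.7% of its UMIs. Saa3, an acute phase protein, had ratios of 0.69 and -1.89 (34.7, 21.5, 20.8 and 77.3 CPM). Npy, a neuropeptide, had 1.15 and -0.74 (43.1, 19.5, 20.3 and 34.1 CPM) and at most 0.657 CPM in T cells. Ltc4s, which makes a leukotriene, had 1.37 and -0.74 (50.3, 19.5, 32.8 and 54.9 CPM). Ctla2a, also abundant in T cells (171 to 514 CPM), had -1.47 and 0.69 (18.9, 52.3, 22.7 and 14.1 CPM). The histone gene Hist1h1b had -1.05 and 0.97 (45.2, 93.3, 47.9 and 24.5 CPM), with 94.5 to 98.8% of its UMIs in the top 5% of members.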

How the results depend on the processing

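The share of members was above that of the Tom- library of the same CD45 label in both Tom+ libraries under each setting that gave both. It was 5.45, 2.12, 5.55 and 3.03% with a looser quality filter (at least 500 genes, under 20% mitochondrial UMIs). A Gpnmb threshold of 3 UMIs gave 8.32% in CD45- Tom+, and one of 10 UMIs gave 6.61% there and 3.26% in CD45+ Tom-. Cells thinned to 10000 UMIs before the rule gave 8.92% in CD45- Tom+ and 8.04% in CD45+ Tom+. Leaving out barcodes present in more than 1 library gave 6.58% in CD45- Tom+, 1.97% in CD45- Tom- and 3.05% in CD45+ Tom-. Leaving out cells of mixed lineage, a setting chosen after seeing the data, gave 11, 3.99, 10.2 and 5.70%. A limit of 0.5% on transcripts of other cell types left no barcode in either Tom+ library, so it gave 19.9% in CD45- Tom- and 23.4% in CD45+ Tom- and no comparison. The 20 higher genes became 41 without marked doublets (17 of the 20 among them), 42 after thinning (18), 48 without shared barcodes (20), 50 at a floor of 5 CPM (20) and 9 at a floor of 50 CPM. The 21 lower genes became 45 after thinning (14 of the 21), 50 without shared barcodes (16), 86 at 5 CPM (21), 7 at 50 CPM and 11 at a fold of 2. Without cells of mixed lineage 17 genes were higher (14 of the 20 among them) and 21 lower (19 of the 21). Why the counts without doublets or shared barcodes were higher was not tested. Hist1h2ap turned to 3.38 in the CD45- pair without marked doublets, and to 3.49 and 3.70 in the pairs without shared barcodes, and the cause was not tested. The median of MHC class II genes ran over -0.81 to -0.33 and -0.89 to -0.59 and never changed sign, while those of the lipid-associated programme (-0.08 to 0.17 and 0.04 to 0.19) and of cell cycle genes (-0.16 to 0.86 and -0.28 to 1.34) did, the former in the CD45- pair. Medians of other lists near 0 also changed sign, such as that of iron genes in the CD45+ pair (-0.03 to 0.30). No paired analysis was possible because each group was 1 library, with no replicate numbers to pair. A model over the 4 libraries with the CD45 label as a block was not run. The depth of 3439149 to 9977362 UMIs over members limits genes under 20 CPM, for which counting error alone is wide. With 1 library a group, a difference by the sort and one by animals or handling cannot be told apart.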

Other observations

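The 10 interferon-stimulated genes at 20 CPM or more included none called between Tom+ and Tom-. Their median log2 ratio over the Car6 class was 0.996 to 1.62 in the 4 libraries. Rsad2, an antiviral enzyme, stood at 32.9, 42.7, 85.7 and 23.3 CPM in members, with 75 to 94.97% of its UMIs in the top 5% of cells. Ifit3, another interferon-induced gene, stood at 24.3, 22.4, 41.9 and 17.2 CPM with 91.3 to 97.1%.

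Resident macrophage genes were present at different levels in members although the rule had capped Vsig4, Marco and Timd4. The folate receptor gene Folr2 stood at 256, 234, 271 and 293 CPM and Mrc1 at 386, 373, 479 and 377 CPM, and the top 5% of members held 26.4 to 47.0% and 18.3 to 24.7% of their UMIs. Retnla stood at 28.7, 5.52, 57.2 and 51.6 CPM and Ccl8 at 147, 40.7, 103 and 100.0 CPM, and 84.2 to 99.4% of the Retnla UMIs lay in the top 5% of members. In CD45+ Tom+ the lymphatic endothelial gene Mmrn1 was at 31.4 CPM and Lyve1 at 39.5 CPM, with 100% and 91.5% of the UMIs in the top 5% of members.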
